A study of Mus musculus with 6 samples.

Results

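The genes described here are 38 factors of the nucleolus that transcribe, modify, cleave and assemble the RNA of the ribosome, chosen by symbol as a fixed list out of 54532 genes in the count table. They were followed in AE9a leukemia cells, a mouse model of acute myeloid leukemia in which c-Kit+ hematopoietic stem and progenitor cells of C57BL/6 mice were transduced with a retrovirus carrying AML1-ETO9a, the truncated splice form of the t(8;21) fusion, and passed through irradiated C57BL/6 recipients, the cells sequenced coming from the third transplant generation. The study compared 3 libraries of leukemia cells flushed from the marrow cavity of femurs and tibias (central bone marrow, CBM) with 3 libraries of leukemia cells that collagenase I released from the flushed bones at 37 °C (endosteal bone marrow, EBM), to ask how leukemia cells differ by their place in the marrow. Every library therefore carries the retroviral oncogene, normal marrow is not analysed here, and cells of both regions were held in IMDM medium with serum around sorting. Because only EBM cells went through digestion, marrow region and enzyme treatment cannot be told apart. The methods of the study give the mice as females bought as young adults. Which mouse each library came from is not given in the sources used here, so p-values measure the spread between these 3 and 3 libraries, which may be partly technical.

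Ribosomes are built mostly in the nucleolus. RNA polymerase I copies the ribosomal DNA into a long precursor, and small nucleolar ribonucleoproteins (snoRNPs) then modify it: box C/D particles add methyl groups to ribose, and box H/ACA particles turn uridine into pseudouridine. A large set of further factors folds and cuts the precursor and loads ribosomal proteins to give the small and the large subunit. Many genes of these steps are known targets of the transcription factor Myc, and growing leukemia cells depend on a high rate of the process. The RNA-seq here measured the mRNAs of these factors, and neither the precursor RNA nor ribosome output.

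Total counts were 16436526 to 19462964 per library, and the floor of 3 counts, the limit that a count of 0 allows, was 0.154 to 0.183 CPM, the count scaled by library size. Such a limit accounts for counting error alone. The 38 genes together took 0.617 to 0.797% of the counts of a library. Of the genes of the leukemia phenotype, Kit, the receptor by which the transduced cells were selected, was at 196 to 239 CPM, and the progenitor transcription factors Gata2 and Myb were at 700.0 to 1174 CPM and 268 to 352 CPM. Runx1t1, the fusion partner known as ETO, was at 20.5 to 41.02 CPM, while Cd34, a stem and progenitor marker, at 1.16 to 16.4 CPM, and Mpo, a myeloid granule enzyme, at 1.65 to 35.8 CPM, varied over 10-fold between libraries. Of the markers of other cells, 4 of 8 osteoblast and stroma markers had at most 3 counts in any library and the defining markers Sp7 and Alpl were at 0. Erythroid and neutrophil markers varied strongly between libraries of 1 region. The 6 erythroid markers, globins included, summed to 2136, 5462 and 2494 CPM in CBM and to 2520, 3452 and 3913 CPM in EBM (replicates 1 to 3 in order, here and throughout), and the 6 neutrophil granule markers summed to 7.80, 230 and 3.67 CPM in CBM and to 52.1, 167 and 35.4 CPM in EBM. CBM replicate 2 stood highest in both, and these values are set beside the results below. In such bulk libraries fewer cells of a type and less RNA per cell cannot be told apart.

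No nucleolar factor differed between EBM and CBM past the threshold. Of the 38 genes, 37 were tested, and 30 were higher and 7 lower in EBM by point estimate (27 and 10 under upper-quartile scaling), with a median log2 fold change (EBM over CBM) of 0.11, quartiles of 0.016 and 0.17 and a range from -0.19 to 0.33. Over all 13352 genes tested the median was 0.0017, and 50.4% were above 0. By the quasi-likelihood test of edgeR, with p adjusted over all genes tested after Benjamini-Hochberg, 0 nucleolar factors had an adjusted p under 0.05, beside 0% of all genes. DESeq2 also called 0 of the factors, although it called 173 genes in all. At an unadjusted p under 0.05 the count was 1 of the 37, the factor Rrp12, by edgeR and by DESeq2 alike, beside 7.91% of all genes (4.01% higher and 3.90% lower). All 3 EBM libraries lay above all 3 CBM libraries for 4 of the 37, Rrp12, Rrp1, Pes1 and Rrn3, beside 7.47% of all genes, and below them for 0, beside 7.65%. The 95% intervals of the single log2 fold changes reached from -0.60 at their lowest (Dkc1) to 0.67 at their highest (Nop2), so a 2-fold change, which is 1 on this scale, lay outside the interval of every factor tested, while no change of the size of the point estimates passed the threshold.

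**Figure D1:**
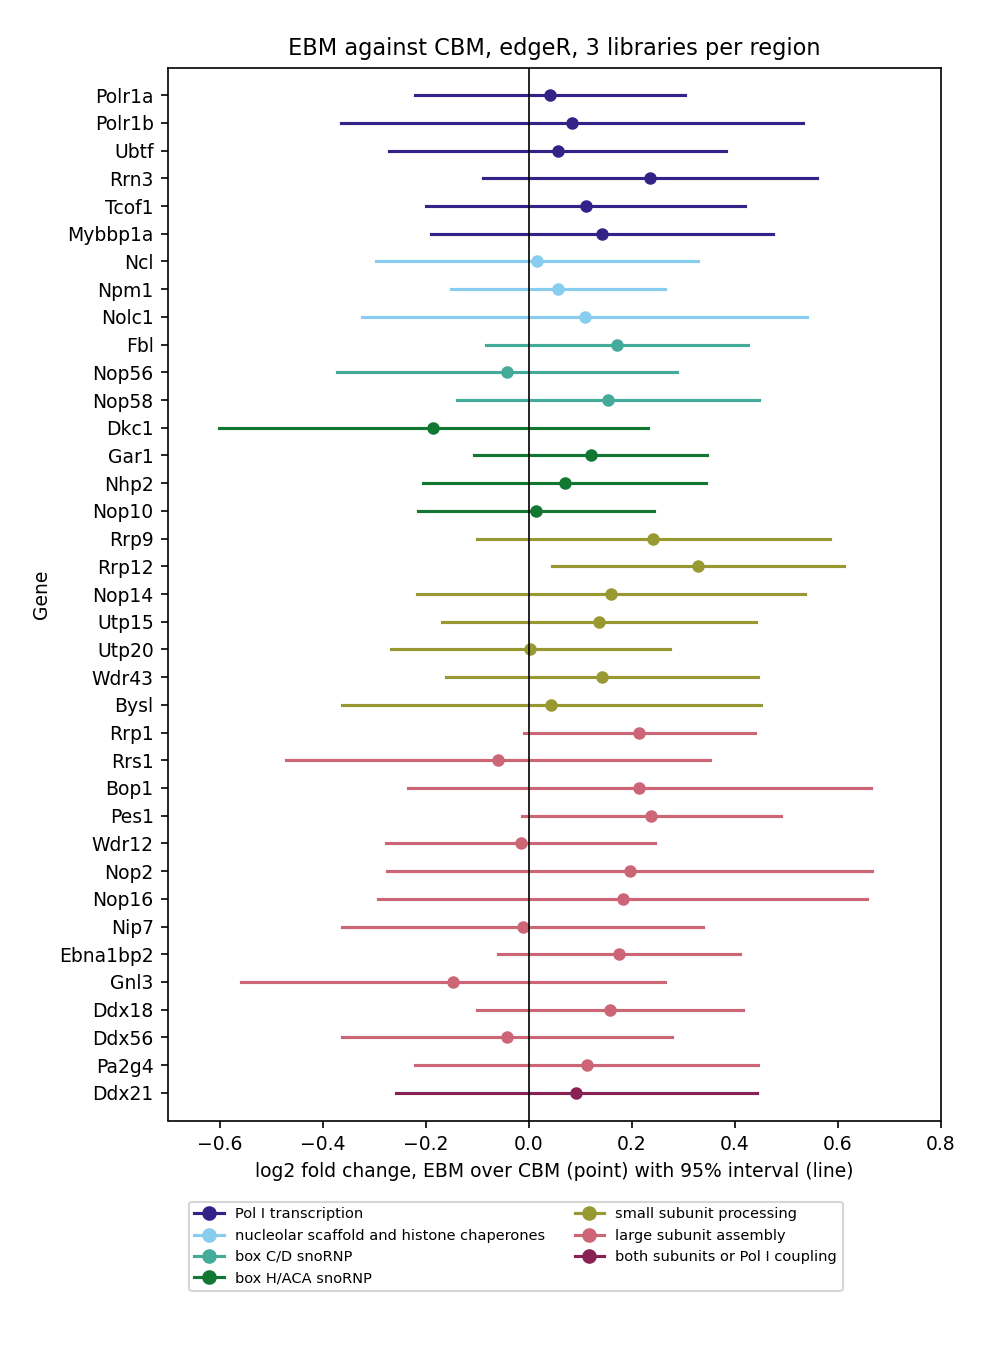
Log2 fold change of each of the 37 tested nucleolar factors, EBM over CBM (point), with its 95% interval from edgeR (line), for 3 libraries a region and coloured by role. The interval of Rrp12 alone, 0.045 to 0.61, leaves out 0.

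The summed tendency rested on single libraries. Without CBM replicate 2 the median log2 fold change was 0.015, with 21 factors higher and 16 lower. Without CBM replicate 3 it was 0.21 (35 higher, 2 lower), with 4 factors at an unadjusted p under 0.05 in edgeR, beside 4.94% of the 13728 genes tested in that fit, and without EBM replicate 3 it was 0.071 (25 higher, 12 lower). For the other 3 libraries left out in turn it stayed between 0.095 and 0.13. The count at an unadjusted p under 0.05 was 0 without CBM replicate 1 or 2, beside 6.98% and 7.44% of all genes tested, 0 without EBM replicate 1 or 3, beside 5.19% and 8.22%, and 1 without EBM replicate 2, beside 6.94%.

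The CBM libraries lay further apart from each other in these factors than the regions did. With each gene centred on its mean log2 CPM over the 6 libraries, the mean over the 37 factors came to -0.077, -0.22 and 0.15 for CBM, and to -0.023, 0.023 and 0.15 for EBM. The CBM values thus spanned the EBM values almost whole, with CBM replicate 3 at the level of EBM replicate 3. CBM replicate 2 was the lowest of the 6 libraries for 28 of the 37 factors, beside 20.6% of all genes tested, and CBM replicate 3 or EBM replicate 3 was the highest for 32 (16 each), beside 33.9%. Summed over the factors, the level was 6629, 6120 and 7699 CPM in CBM and 6996, 7243 and 7432 CPM in EBM, with CBM replicate 2 again lowest and CBM replicate 3 highest. Leaving out Ncl and Npm1, the most counted members, CBM replicate 2 remained lowest at 4344 CPM and EBM replicate 3 was highest at 5629 CPM, with CBM replicate 3 at 5617 CPM. CBM replicate 2, the library with the least of these transcripts, was also the one with the most erythroid and neutrophil marker RNA. EBM replicate 2, second in neutrophil markers, had a factor mean of 0.023, and EBM replicate 3, second in erythroid markers, one of 0.15. CBM replicate 1, lowest in erythroid markers, had -0.077, and CBM replicate 3, lowest in neutrophil markers, had 0.15. The part of these markers in the factor levels was not tested.

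**Figure D2:**
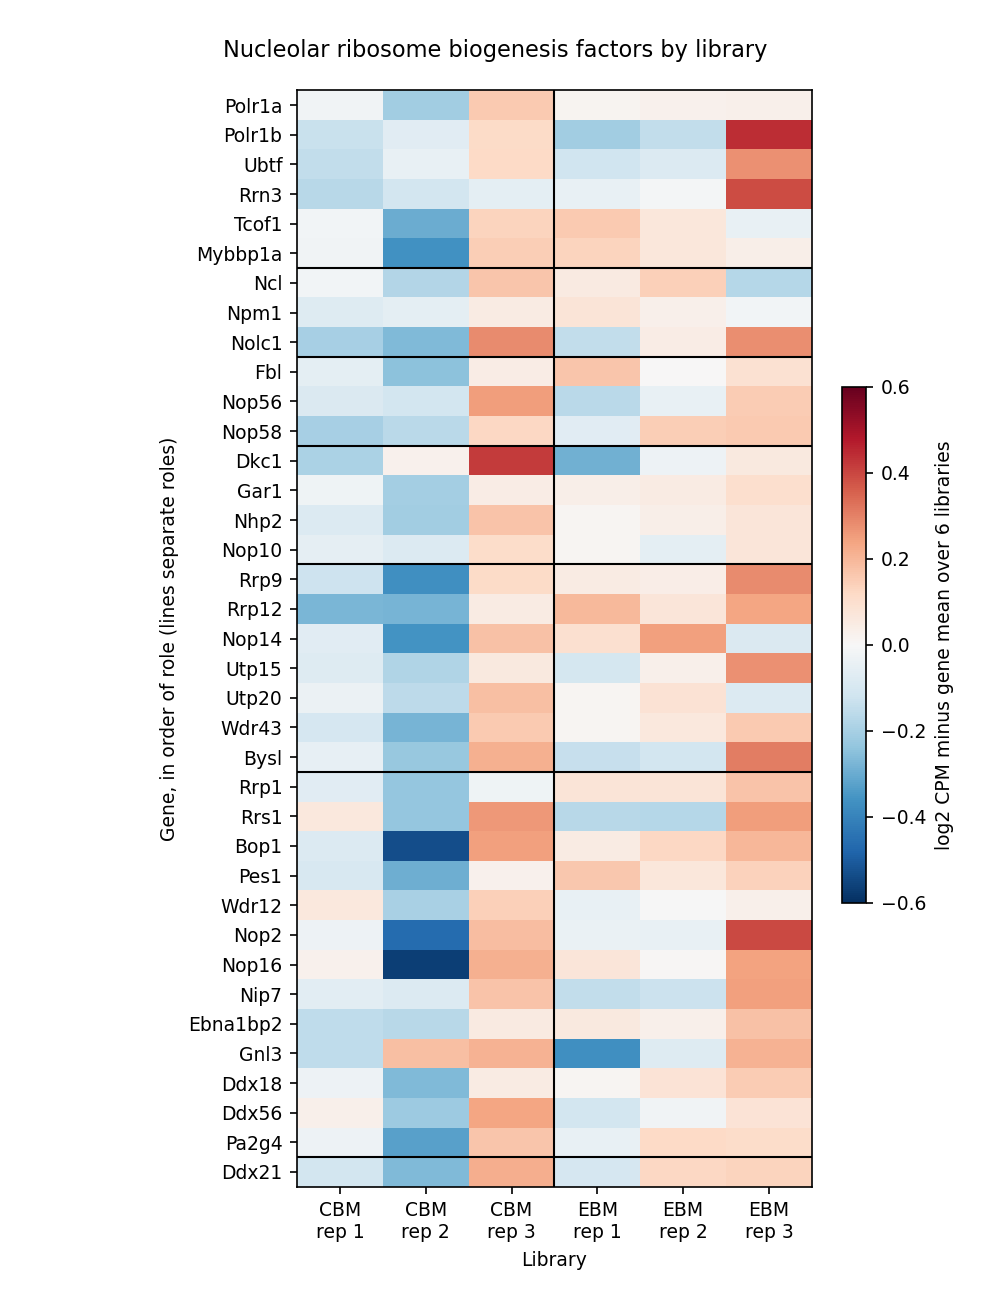
Level of each of the 37 tested nucleolar factors in the 6 libraries, as log2 CPM minus the gene's mean over the 6 libraries (red above, blue below), in order of role. CBM replicate 2 is the bluest column, lowest for 28 genes, and the red columns are CBM replicate 3 and EBM replicate 3, highest for 16 genes each.

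Levels per length spanned a wide range within the list. By mean RPKM over the 6 libraries, computed with the gene length in the table, Npm1 stood first at 347, with a range over libraries of 329 to 366, clear of every other member. Pa2g4 at 118 (93.7 to 132) and Ncl at 99.01 (87.3 to 111) followed, and their ranges overlapped. The next 3, Rrp1 at 83.9, Mybbp1a at 81.3 and Nhp2 at 80.8 RPKM, also overlapped. At the low end were Polr1a at 9.62, Utp20 at 7.77 and Wdr12 at 5.62 RPKM. This order rests on the lengths used, 2665 bases for Npm1, 10188 for Ncl and 11955 for Wdr12. Whether they match the transcripts of these cells was not checked. By mean CPM Ncl, at 1003 in CBM and 1014 in EBM, stood above Npm1 at 907 and 944, with overlapping ranges. Wdr12, at 67.5 and 66.8 CPM, stood above Nip7 at 36.8 and 36.5. Between libraries the factors varied about as much as other genes of their level: the highest over the lowest library had a median ratio of 1.37 over the 37 factors, from 1.11 for Npm1 to 1.81 for Nop2, beside 1.34 over 5798 tested genes with a mean CPM at or above that of the least counted factor, 36.6.

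The 38th gene, Wdr74, which acts in the assembly of the large subunit, had counts of 1, 2 and 3 in CBM and 0, 1 and 0 in EBM, did not pass the filter on low counts and was not tested. Another annotated gene on the same strand, Gm45736 (chr19:8735841-8741223), covers nearly all of it (chr19:8735827-8740624) and had at most 1 count in a library. Reads shared by overlapping genes can be left uncounted, so the level of Wdr74 is uncertain, and how the counter treated such reads is not given in the sources used here.

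Transcription by RNA polymerase I was represented by 6 factors, all with a point estimate above 0 in EBM and a median log2 fold change of 0.097, and none past the threshold. Polr1a (chr6:71909053-71984935, GRCm38), the largest catalytic subunit of the polymerase, was at 112, 98.4 and 127 CPM in CBM and 115, 116 and 116 CPM in EBM. The second large subunit, Polr1b, was at 98.1, 103 and 117 CPM in CBM and 93.1, 97.1 and 147 CPM in EBM. EBM replicate 3 was highest and the other 2 EBM libraries were below all 3 CBM libraries, so the fold change of 0.084 (95% interval -0.37 to 0.53) came from 1 library, and without it the value was -0.16. Ubtf, the HMG-box factor that opens ribosomal DNA and bends its promoter, gave 199, 213 and 239 CPM in CBM and 203, 208 and 267 CPM in EBM, again with EBM replicate 3 on top and the rest overlapping.

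Rrn3 (chr16:13780708-13814839), also known as TIF-IA, links the polymerase to its promoter and is a point at which growth signals act on ribosomal DNA. Its level was 53.2, 55.2 and 57.2 CPM in CBM and 57.9, 59.2 and 78.1 CPM in EBM. The groups did not overlap, by a margin of less than 1 CPM between CBM replicate 3 and EBM replicate 1, and EBM replicate 3 stood apart from the other 5 libraries. The means were 55.2 ± 2.002 CPM for CBM against 65.1 ± 11.3 CPM for EBM (SD over 3 libraries). That is a log2 fold change of 0.24 (SE 0.14, adjusted p = 0.735, edgeR), which was 0.074 without EBM replicate 3 and 0.31 without EBM replicate 1. The exact permutation test of its log2 CPM gave a two-sided p of 0.1, the smallest that 3 against 3 libraries allow.

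Both proteins that attend the polymerase were lowest in CBM replicate 2. Tcof1, the treacle protein mutated in Treacher Collins syndrome, which binds Ubtf and the polymerase, was at 113, 92.7 and 125 CPM in CBM and 127, 119.6 and 111 CPM in EBM. Mybbp1a, a nucleolar protein that binds Myb and the polymerase complex, was at 461, 365 and 519 CPM in CBM and 513, 491 and 480.4 CPM in EBM. For Mybbp1a all 3 EBM libraries lay between CBM replicates 1 and 3, and the log2 fold change was 0.14 (95% interval -0.19 to 0.47). The 3' end of Mybbp1a is overlapped on the opposite strand by Spns2, counted at 26 to 294 reads a library.

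Of the 32 members with a promoter in the RefSeq table (GRCm38.p6, windows of 250 bases before to 50 bases after the start, both strands searched), 6 held the hexamer CACGTG, the E-box that Myc with Max is known to bind: Mybbp1a, Nop2, Pes1, Rrn3, Utp20 and Wdr43. That is 18.8% of the matched members, beside 8.09% of 27025 genes in the table. The members were chosen in part as known Myc targets. The 27025 genes, here and for the motifs below, were not limited to those expressed in these cells, so the shares are not like for like. Rrn3 and Nop2 are shown because they carry the hexamer before the start, in capitals, at 215 and 48 bases before it in Rrn3 and at 60 bases before it in Nop2. Both are the 250 bases before the start on the plus strand, chr16:13780449-13780698 and chr6:125131633-125131882.
Rrn3: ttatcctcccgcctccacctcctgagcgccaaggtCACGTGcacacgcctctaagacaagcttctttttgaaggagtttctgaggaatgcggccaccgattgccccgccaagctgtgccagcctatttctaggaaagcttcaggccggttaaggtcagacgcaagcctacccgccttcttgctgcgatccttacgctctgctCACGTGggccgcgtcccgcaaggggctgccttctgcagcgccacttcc
Nop2: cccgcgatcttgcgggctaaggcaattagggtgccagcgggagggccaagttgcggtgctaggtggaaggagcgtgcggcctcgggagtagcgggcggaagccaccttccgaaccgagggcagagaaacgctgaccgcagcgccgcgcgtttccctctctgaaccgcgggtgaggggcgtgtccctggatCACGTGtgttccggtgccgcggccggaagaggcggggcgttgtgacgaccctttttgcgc
The log2 fold changes of the 6 genes were 0.14 for Mybbp1a, 0.20 for Nop2, 0.24 for Pes1, 0.24 for Rrn3, 0.0031 for Utp20 and 0.14 for Wdr43, all within the range of the other members. Without CBM replicate 2 they were 0.015 for Mybbp1a, 0.038 for Nop2, 0.16 for Pes1, 0.24 for Rrn3, -0.070 for Utp20 and 0.046 for Wdr43. Without EBM replicate 3 they were, in the same order, 0.15, 0.025, 0.22, 0.074, 0.036 and 0.091. Without CBM replicate 3 they were 0.26, 0.35, 0.31, 0.26, 0.10 and 0.27. The letters CCGGAAG, a core bound by ETS family factors, were in 8 matched members (25%, beside 9.93% of genes), Rrn3 and Nop2 among them, and the palindromic NRF1 motif was in 0 of 32 (1.07% of genes). These matches are a description of the letters and not of binding.

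Nucleolar scaffold and histone chaperone genes, 3 in number and all 3 above 0 by point estimate (Ncl turned below 0 under upper-quartile scaling), had a median log2 fold change of 0.057. Ncl (chr1:86344719-86359400), nucleolin, binds ribosomal DNA chromatin and the precursor RNA and was at 993, 889 and 1127 CPM in CBM and 1041, 1111 and 891 CPM in EBM. Its lowest values were in CBM replicate 2 and EBM replicate 3, and its log2 fold change was 0.016 (95% interval -0.30 to 0.33). Npm1 (chr11:33152287-33163206), nucleophosmin, the histone chaperone that holds the outer nucleolus together and is often mutated in human acute myeloid leukemia, was at 878, 888 and 955 CPM in CBM and 975, 943 and 913 CPM in EBM. With means of 907 ± 42.3 CPM for CBM against 944 ± 30.8 CPM for EBM (SD over 3 libraries) its log2 fold change of 0.057 had the narrow interval of -0.15 to 0.27, which left out a value above 0.27 or below -0.15. Npm1 has many processed pseudogenes, whose shared reads make its count uncertain. Nolc1, the phosphoprotein that carries snoRNPs between nucleolus and Cajal bodies, spread more, at 185, 177 and 259 CPM in CBM and 192, 219 and 258 CPM in EBM, with CBM replicate 3 and EBM replicate 3 alike at the top.

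**Figure D3:**
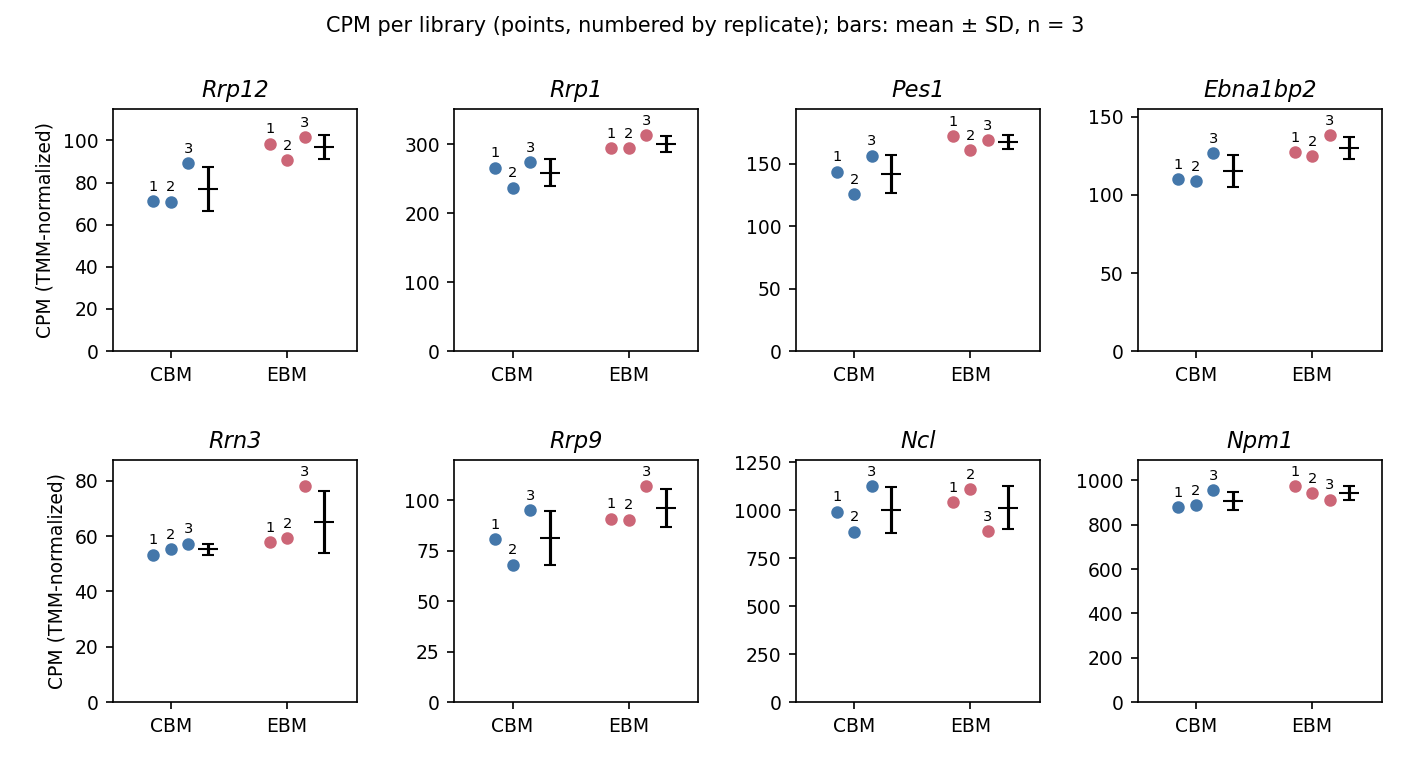
CPM per library (points, numbered by replicate) with mean and SD (bars, n = 3 a region) for the 6 factors with the smallest p and for Ncl and Npm1, on axes from 0. EBM points lie above CBM points for Rrp12, Rrp1, Pes1 and Rrn3, and the regions overlap in the other 4.

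The box C/D core was represented by 3 proteins, 2 higher and 1 lower by point estimate, with a median log2 fold change of 0.15. Fbl (chr7:28169710-28179269), fibrillarin, the methyltransferase of the particle, was at 211, 185 and 226 CPM in CBM and 246, 220.0 and 234 CPM in EBM. CBM replicate 3 lay between EBM replicates 2 and 3, and the log2 fold change was 0.17 (95% interval -0.083 to 0.43, adjusted p = 0.764, edgeR). Without CBM replicate 2 that value was 0.097, and without CBM replicate 3 it was 0.24. Nop56 and Nop58 are the paired scaffold proteins on which the particle is built. Nop56 (chr2:130274430-130279313) was at 288, 284 and 364 CPM in CBM and 273, 297 and 339.8 CPM in EBM, a log2 fold change of -0.042, with its highest value in CBM replicate 3. Nop58 (chr1:59684971-59719044) was at 232, 239 and 290.3 CPM in CBM and 254, 295 and 297 CPM in EBM, a log2 fold change of 0.15, the first 2 CBM libraries being below and CBM replicate 3 among the EBM libraries. The partners of this one particle thus had estimates on both sides of 0, each with an interval that held 0, and their difference was not tested.

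Several of these genes have annotated snoRNA genes, which encode the guide RNAs of snoRNPs, within their span. By the deposited coordinates 19 snoRNA genes lie within the span of 6 of the 38 members, on the same strand (Ncl, Nop56, Nop58, Dkc1, Wdr43 and Gnl3). Introns were not checked. By GENCODE M21 sequence, 9 of the 19 have the letters TGATGA of box C in the first 20 bases and CTGA of box D in the last 20. The share was 20.5% of 1507 annotated snoRNA genes. The sequences below, 5′ to 3′ on the strand of the host gene with box C and box D letters in capitals, are shown to let the host and its guide be seen together.
Snord110 in Nop56: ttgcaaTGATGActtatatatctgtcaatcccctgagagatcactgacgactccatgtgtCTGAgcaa
Gm26287 in Nop58: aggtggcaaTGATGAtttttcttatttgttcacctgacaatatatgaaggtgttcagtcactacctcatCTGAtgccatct
Snord11 in Nop58: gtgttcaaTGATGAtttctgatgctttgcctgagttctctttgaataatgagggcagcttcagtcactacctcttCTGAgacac
Snord82 in Ncl: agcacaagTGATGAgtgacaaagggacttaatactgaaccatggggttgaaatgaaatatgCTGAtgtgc
Gm22858 in Wdr43: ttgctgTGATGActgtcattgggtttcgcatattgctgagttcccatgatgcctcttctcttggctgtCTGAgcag
They lie at chr2:130275506-130275573, chr1:59704258-59704338, chr1:59704790-59704873, chr1:86356261-86356330 and chr17:71641584-71641659. Counts assigned to these short genes were low and cannot stand for the guide RNAs. Snord110 had 8, 7 and 12 counts in CBM and 3, 2 and 7 in EBM, Gm26287 had 7, 14 and 20 and then 5, 5 and 8, and Gm22858 had 25, 12 and 20 and then 30, 28 and 14. Of the 19, 9 had a count in any library, the largest being 35 for Snord53 of Wdr43 in CBM replicate 2. RNAs this short are poorly kept by libraries of long fragments, and reads of the host's intron can be assigned to them.

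The 4 proteins of the box H/ACA particle had a median log2 fold change of 0.042, with 3 higher and 1 lower (Nop10 turned below 0 under upper-quartile scaling). Dkc1 (chrX:75095854-75109777), dyskerin, the pseudouridine synthase that also stabilises telomerase RNA, had the lowest estimate of all members. Its level was 104, 120.4 and 158 CPM in CBM and 96.99, 116 and 123 CPM in EBM, means of 127 ± 27.8 CPM for CBM against 112 ± 13.6 CPM for EBM (SD over 3 libraries). CBM replicate 3 stood above the rest and EBM replicate 1 was lowest, and the other 4 libraries overlapped. The log2 fold change of -0.19 had an interval of -0.60 to 0.23 (adjusted p = 0.9003, edgeR). Without CBM replicate 3 that value was -0.00026, and without CBM replicate 1 it was -0.31. The last bases of Dkc1, chrX:75109733-75109777, overlap Mpp1, an erythroid membrane scaffold gene on the opposite strand. Over its whole span Mpp1 was counted at 1928 to 3586 reads, most in CBM replicate 2, and reads in the shared stretch are not known. The 3 small partners lay closer together. Gar1 was at 76.9, 68.02 and 80.6 CPM in CBM and 80.2, 80.9 and 83.98 CPM in EBM, Nhp2 at 87.2, 79.8 and 104 CPM in CBM and 92.96, 94.6 and 96.9 CPM in EBM, and Nop10 at 57.1, 56.1 and 64.1 CPM in CBM and 59.8, 56.9 and 62.3 CPM in EBM. Their log2 fold changes were 0.12, 0.070 and 0.014, and in each of the 3 the CBM range took in part or all of the EBM range.

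Small subunit processing held 7 members, all 7 with a point estimate above 0 (Utp20 turned below 0 under upper-quartile scaling), a median log2 fold change of 0.14, and all 7 lowest in CBM replicate 2. Rrp12 (chr19:41862852-41896153), a HEAT-repeat protein needed for the maturation and export of pre-ribosomal particles, had the largest estimate and the smallest p of the list. Its level was 71.2, 70.9 and 89.1 CPM in CBM and 98.4, 90.5 and 102 CPM in EBM. All 3 EBM libraries were above CBM replicate 3, the nearest of them, EBM replicate 2, by little more than 1 CPM, and CBM replicates 1 and 2 were well below. On average it was at 77.1 ± 10.4 CPM for CBM against 96.8 ± 5.699 CPM for EBM (SD over 3 libraries), 1.26-fold, a log2 fold change of 0.33 (SE 0.12, 95% interval 0.045 to 0.61). By edgeR its p was 0.0292 before and 0.563 after adjustment, rank 693 of the 13352 genes, and the adjusted p lay between 0.474 and 0.988 in the alternatives tried. The exact permutation p was 0.1, the smallest possible. The deposited coordinates of Rrp12 and Wdr43 differ slightly from GENCODE M21, and those of the other 36 members are the same.

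Rrp9 (chr9:106475963-106485424), the U3 snoRNA-binding protein of the processome that makes the first cuts, was at 80.7, 68.2 and 95.1 CPM in CBM and 90.97, 90.4 and 107 CPM in EBM. CBM replicate 3 was above EBM replicates 1 and 2, and the log2 fold change was 0.24 (95% interval -0.10 to 0.58, adjusted p = 0.747, edgeR). Without CBM replicate 2 that value was 0.13, and without CBM replicate 3 it was 0.37. Bysl, bystin, which joins late in small subunit assembly, was at 45.6, 40.3 and 54.7 CPM in CBM and 42.8, 43.8 and 58.5 CPM in EBM, highest in EBM replicate 3 and CBM replicate 3, with the other 2 EBM libraries inside the CBM range. Nop14, Utp15, Utp20 and Wdr43, further processome components, had log2 fold changes from 0.0031 (Utp20) to 0.16 (Nop14) and overlapping regions. Bysl and Rrp9 are each overlapped on the opposite strand by a counted gene, Ccnd3 at 2896 to 4589 and Parp3 at 302 to 397 reads a library.

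Large subunit assembly was the largest group, with 13 tested members, 8 higher and 5 lower, and a median log2 fold change of 0.16. Pes1 and Bop1 with Wdr12 form the PeBoW complex, which the 28S and 5.8S rRNA need to mature. Pes1 (chr11:3963975-3980004) was at 144, 125 and 156 CPM in CBM and 172, 161 and 169 CPM in EBM, EBM above CBM in every library and CBM replicate 2 lowest. That gave a log2 fold change of 0.24 (SE 0.11, adjusted p = 0.6502, edgeR), 0.16 without CBM replicate 2 and 0.31 without CBM replicate 3. Bop1 (chr15:76452989-76477277) was at 89.2, 65.4 and 112 CPM in CBM and 97.99, 103 and 108 CPM in EBM. The EBM libraries lay close together inside the wide CBM range, which ran from the lowest to the highest value of the 6, and the log2 fold change of 0.22 had an interval of -0.24 to 0.67. It was 0.037 without CBM replicate 2 and 0.42 without CBM replicate 3. Bop1 shares only chr15:76452989-76453038 with Mroh1 on the opposite strand, which was counted at 4644 to 7648 reads over its whole span. For Wdr12, the third partner, values ran from 58.6 CPM in CBM replicate 2 to 73.98 CPM in CBM replicate 3 with all EBM libraries between, a log2 fold change of -0.016 (95% interval -0.28 to 0.25).

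Rrp1 (chr10:78400384-78413043), which acts on the precursor of 5.8S and 28S rRNA, was the other large subunit factor with no overlap, at 266, 237 and 274 CPM in CBM and 294, 294 and 313 CPM in EBM. Its means were 259 ± 19.5 CPM for CBM against 301 ± 11.04 CPM for EBM (SD over 3 libraries), a log2 fold change of 0.21 (SE 0.094, adjusted p = 0.645), and the permutation p was again the lowest possible, 0.1. Ebna1bp2, an early assembly factor known as EBP2, was at 110.1, 109 and 127 CPM in CBM and 127, 125 and 138 CPM in EBM, and here CBM replicate 3 lay above EBM replicate 2, with a log2 fold change of 0.18 (adjusted p = 0.725, edgeR). Nop2 (chr6:125131909-125144753), the cytosine methyltransferase of 28S rRNA whose promoter is printed above, was at 112, 83.02 and 129.9 CPM in CBM and 111, 111 and 150.5 CPM in EBM. It had the widest ratio of highest to lowest library in the list, from CBM replicate 2 to EBM replicate 3. In the other 4 libraries both EBM values lay just below CBM replicate 1 and further below CBM replicate 3. Its log2 fold change of 0.20 was 0.038 without CBM replicate 2, 0.025 without EBM replicate 3 and 0.35 without CBM replicate 3. Rrs1 (chr1:9545408-9547455), which brings the 5S particle into the subunit, was at 62.1, 50.5 and 71.1 CPM in CBM and 52.9, 52.7 and 70.7 CPM in EBM, lowest in CBM replicate 2 but nearly as low in EBM replicates 1 and 2, for a log2 fold change of -0.059.

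The remaining 6 large subunit members had overlapping regions. Gnl3, the nucleolar GTPase nucleostemin of stem and progenitor cells, had the second lowest estimate of the list, -0.15 (95% interval -0.56 to 0.26). That log2 fold change was -0.016 without EBM replicate 1 and -0.31 without EBM replicate 3. CBM replicate 2, the lowest library for most members, was among the 3 highest for Gnl3 at 229.8 CPM, while EBM replicate 1 was lowest at 157 CPM. Gnl3 shares only chr14:31019138-31019152 with Pbrm1 on the opposite strand. Over its whole span Pbrm1 was counted at 2168 to 3629 reads, most in CBM replicate 2, which does not show how many fell in the shared stretch. Nop16, an assembly factor of early large subunit particles, was farthest down in CBM replicate 2, at 41.1 CPM beside 61.2 to 71.9 CPM in the other 5 libraries. The helicases Ddx18 and Ddx56 had log2 fold changes of 0.16 and -0.042, Pa2g4, the ErbB3-binding protein that sits on pre-ribosomes and ribosomes, of 0.11, and Nip7, a partner in the processing of the precursor, of -0.011. Ddx21 (chr10:62580251-62602281), the helicase that works at polymerase I genes and on snoRNAs, stands apart from both subunit groups and was at 330.5, 297 and 415 CPM in CBM and 332, 388 and 391 CPM in EBM, a log2 fold change of 0.093, with CBM replicate 3 highest.

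Of the 38 members, 9 meet on the opposite strand a gene with at least 100 counts in a library. They are Mybbp1a, Nop56, Dkc1, Nhp2, Rrp9, Bysl, Bop1, Wdr12 and Gnl3. Reads inside a shared stretch can be told apart only if strand was used in counting, which is not given in the sources used here. Reads outside it are not affected, and some stretches are short. Nop56 ends at chr2:130279313 and Idh3b begins at 130279309, while Gnl3 ends at chr14:31019152 and Pbrm1 begins at 31019138. Counts given for neighbours are over their whole span. Over the 28 other members tested, a count added after seeing the data, 25 were higher and 3 lower, the median being 0.12 on the log2 scale, and edgeR called 0.

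The wider pathway had a similar small offset. Of 134 further ribosome biogenesis genes in the table, 131 were tested, with 104 higher and 27 lower and a median log2 fold change of 0.097. After adjustment 0 were called by edgeR, and an unadjusted p under 0.05 was found for 12 higher and 1 lower gene, beside 4.01% and 3.90% of all genes. EBM lay wholly above CBM for 22 of the 131, beside 7.47% of all genes, and wholly below for 2, beside 7.65%. By step, the medians were 0.097 for 13 polymerase I genes (7 higher, 6 lower), 0.11 for 39 small subunit processome genes (37 higher, 2 lower), 0.11 for 47 large subunit genes (36 higher, 11 lower), 0.088 for 10 genes of late small subunit assembly (8 higher, 2 lower) and 0.057 for 22 tested genes of the RNA exosome and RNase MRP (16 higher, 6 lower). Their mean of centred log2 CPM came to -0.077, -0.16 and 0.078 for CBM, and to -0.020, 0.033 and 0.14 for EBM. CBM replicate 2 was thus again lowest and the replicates 3 again highest of their regions, as for the 37 factors.

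Single genes of the wider pathway came closer to the threshold than any member, and none passed it in edgeR. Sbds, mutated in Shwachman-Diamond syndrome, which frees the new large subunit for use by removing eIF6, was at 70.2, 76.5 and 74.6 CPM in CBM and 93.5, 103 and 102 CPM in EBM. The 2 regions were well apart, with a log2 fold change of 0.43 (SE 0.088, adjusted p = 0.237), and over the alternatives the adjusted p ran from 0.0270 in DESeq2, the only one to call it, to 0.917 in edgeR without CBM replicate 3. Rpp38, a protein of RNase P and RNase MRP, was low at 6.94, 5.21 and 5.56 CPM in CBM and 11.04, 8.74 and 9.96 CPM in EBM, a log2 fold change of 0.75 (adjusted p = 0.348, edgeR). Znrd1, a small polymerase I subunit, was at 20.4, 18.8 and 19.5 CPM in CBM and 25.9, 24.7 and 25.4 CPM in EBM, a log2 fold change of 0.37, and its fellow subunit Polr1c gave 0.24. In the other direction Taf1c, a subunit of the promoter factor SL1, was at 37.6, 37.01 and 37.4 CPM in CBM and 26.9, 27.1 and 34.6 CPM in EBM, a log2 fold change of -0.34 (adjusted p = 0.591, edgeR), and Taf1d of the same complex gave -0.11 with overlap. The EBM libraries of Taf1c all lay below the CBM libraries, EBM replicate 3 nearest to them.

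The other genes with the smallest p in each step spread around the same values. In the processome Wdr36 and Utp4 had log2 fold changes of 0.27 and 0.33, and Utp23 and Wdr46 of -0.21 and -0.0036. In large subunit assembly Urb1 gave 0.34, Nvl -0.10 and Ppan -0.14. In late small subunit assembly Ltv1, which escorts the particle to the cytoplasm, gave 0.40, Tsr2 0.16, Pno1 -0.014 and Riok2 -0.0082. Of the exosome and RNase MRP, the exosome ring subunit Exosc8 gave 0.35, Pop7 -0.084 and Exosc3 -0.068. Adjusted p-values of the genes from Wdr36 to Exosc3 just given ran from 0.484 to 0.997 by edgeR.

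Ribosomal protein genes, the cargo that these factors assemble, had their own pattern over libraries. The 81 cytosolic ribosomal protein genes tested had a median log2 fold change of 0.19, with 76 higher and 5 lower, and EBM lay wholly above CBM for 39, beside 7.47% of all genes, and wholly below for 1, beside 7.65%. Library means of their centred log2 CPM came to -0.052, -0.061 and -0.13 for CBM, and to 0.12, -0.040 and 0.16 for EBM. The regions did not overlap, but the gap was small, from CBM replicate 1 at -0.052 to EBM replicate 2 at -0.040. These means and the count of 39 were taken under TMM scaling only. Upper-quartile scaling, which moved the median of the nucleolar factors from 0.11 to 0.077, was not tried on them. CBM replicate 3, among the highest for the nucleolar factors, was the lowest for ribosomal proteins. The 77 mitochondrial ribosomal protein genes had a median of 0.077 (60 higher, 17 lower) and overlapping library means, -0.097, -0.052 and 0.036 for CBM with 0.0049, -0.047 and 0.15 for EBM. Reads of ribosomal protein genes are shared with many processed pseudogenes, so their counts are uncertain. In both groups edgeR called 0 at an adjusted p under 0.05.

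Myc, the factor that many of these genes are known to answer to, had its point estimate in the other direction. It was at 133, 108 and 137 CPM in CBM and 53.8, 51.3 and 52.8 CPM in EBM, on average 126 ± 15.6 and 52.6 ± 1.25 CPM (SD, n = 3 each). The 3 EBM libraries were nearly equal and lay far below the lowest CBM library. The log2 fold change was -1.26 (SE 0.11), with an edgeR adjusted p of 0.0583, just short of the threshold. No gene had a lower adjusted p, but other genes shared this value, and Myc did not have the smallest unadjusted p. Over the alternatives its adjusted p ranged from 2.54e-13 in DESeq2 to 0.640 in edgeR without EBM replicate 2, and its log2 fold change from -1.36 to -1.20. CBM replicate 2, lowest for the nucleolar factors, was also lowest of the CBM libraries for Myc, and the EBM libraries had factor means of -0.023 to 0.15 at 51.3 to 53.8 CPM of Myc. Protein levels and activity of Myc were not measured in these libraries.

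**Figure D4:**
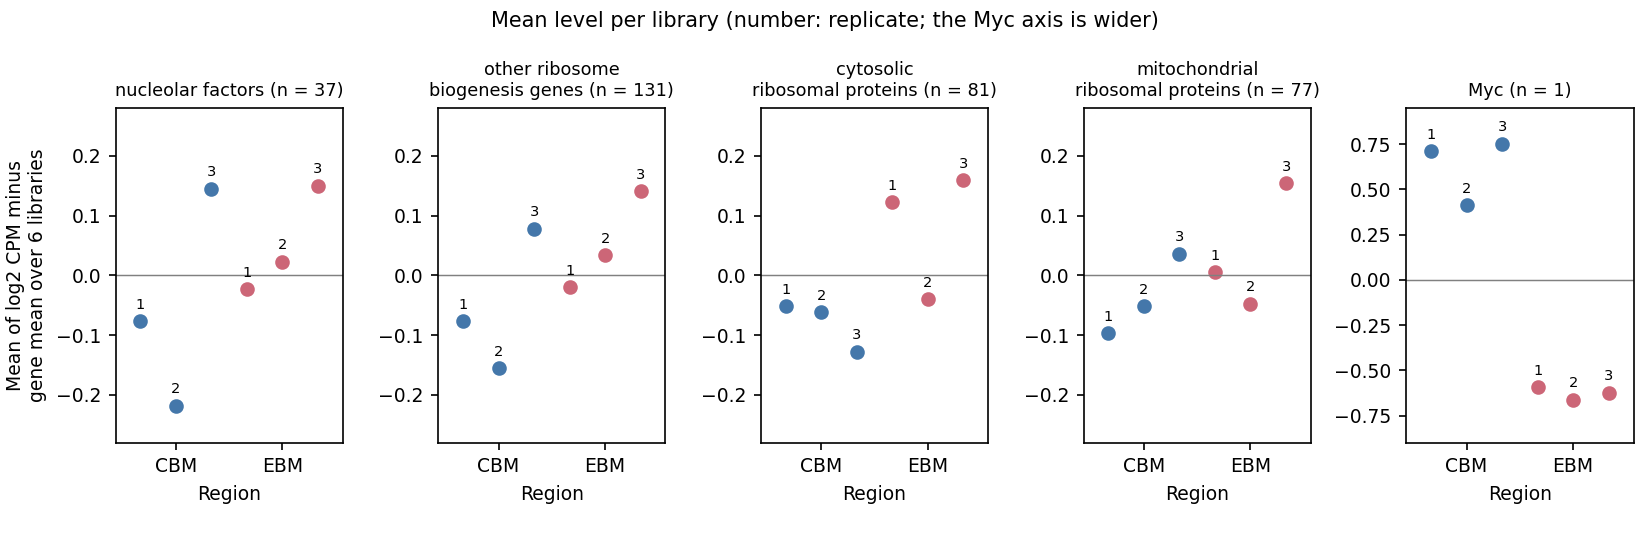
Mean over genes of log2 CPM minus each gene's mean over the 6 libraries, per library (points, numbered by replicate), for 37 nucleolar factors, 131 other ribosome biogenesis genes, 81 cytosolic and 77 mitochondrial ribosomal protein genes and Myc, whose axis is wider. CBM and EBM overlap for the nucleolar factors, the other biogenesis genes and the mitochondrial ribosomal proteins, lie just apart for the cytosolic ribosomal proteins, and lie far apart for Myc, at 0.41 to 0.75 in CBM and -0.66 to -0.59 in EBM.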

How the data were processed

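RNA-seq libraries of AE9a leukemia cells (3 CBM, 3 EBM) were made, according to the study's methods, from rRNA-depleted RNA with a directional kit and read in pairs, although the labels give the library type as mRNA. HISAT2 2.0.5 and mm10 are named in the submitters' processing notes; the counter and its strand setting are not given in the sources used here. The authors deposited raw counts per gene with gene lengths and coordinates. Genes were filtered with filterByExpr and scaled by TMM (factors 0.948 to 1.037), and EBM was compared with CBM by the edgeR 4.0.16 quasi-likelihood test (R 4.3.3, Benjamini-Hochberg threshold 0.05, prior count 2 for log2 CPM); the common dispersion was 0.0617. DESeq2 1.42.0, limma-voom 3.58.1, 2 other scalings, 2 other filters, the replicate block and leaving out each library were alternatives, and the script was tested on simulated data. No pair of libraries of a region agreed within sampling noise (smallest chi-square per degree of freedom 11.9). The members, gene lists and marker lists were chosen with earlier results of these data known. All members may be named, per-library values being given for members set by role and for the 6 with the smallest p; outside the list Myc and, per pathway step, the 2 genes of smallest p in each direction are named. The summed CPM of the markers not given in the results was at most 1.45 for osteoblast and stroma, 3.16 for endothelium, 0.842 for T cells, 14.5 for B cells and 7.48 for macrophages, and 1272 to 1751 for the leukemia list. Wdr74, filtered out, has no CPM or fold change.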

Additional observations from a re-analysis of the deposited data

How the results depend on the processing

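With 3 libraries a region, no nucleolar factor's change of the size estimated here passed the threshold, although each tested factor had at least 32.9 CPM in every library. No nucleolar factor was called under any of the alternatives run, and the median log2 fold change stayed above 0, from 0.015 to 0.21 over the libraries left out and from 0.077 to 0.12 otherwise, with 27 higher and 10 lower under upper-quartile scaling. The genes called in all numbered 0 by edgeR, limma-voom and the other scalings, 173 by DESeq2 and 40 without a filter on low counts. Factors at an unadjusted p under 0.05 numbered 0 to 4 over the libraries left out, beside 4.94 to 8.22% of all genes tested. Of the 37 factors, 28 had a log2 fold change that turned direction or moved over 1.5 times without CBM replicate 2, and likewise 28 without CBM replicate 3, 21 without EBM replicate 3, 17 without EBM replicate 1, 16 without CBM replicate 1 and 10 without EBM replicate 2. Whether same-numbered libraries came from the same mouse is not given in the sources used here. Deviations of same-numbered libraries from their region means correlated at 0.68, -0.20 and 0.20 over genes. With 3 libraries a region these values cannot decide whether the libraries were paired. With the replicate block 3 factors had an unadjusted p under 0.05 (Rrp12, Rrp9 and Pes1), beside 9.01% of all genes, 0 genes were called, and the adjusted p of Myc was 0.188.

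Of 754 values of 58 single genes under alternatives, 699 kept their direction and their side of the threshold, 3 became calls and 52 turned direction, 43 of these on leaving out a library, in 22 genes. The 3 calls were Myc by DESeq2 and without a filter (adjusted p 0.0120), and Sbds by DESeq2. The values that turned were, under upper-quartile scaling, Ncl -0.017, Utp20 -0.031 and Nop10 -0.020, under the filter at 5 CPM in 3 libraries Utp20 -0.011 and Nop10 -0.00245, for Wdr46 0.0062 by limma-voom, 0.000125 without a filter and 0.0064 under the block, and for Pno1 0.0034 under the block. Over the libraries left out, the log2 fold changes that turned ranged from -0.088 to 0.13 for Ubtf, from -0.070 to 0.10 for Utp20, from -0.11 to 0.055 for Wdr12, from -0.028 to 0.076 for Nop10, from -0.063 to 0.11 for Ncl, from -0.0081 to 0.24 for Ddx21, from -0.0070 to 0.23 for Pa2g4, from -0.046 to 0.14 for Polr1a, from -0.094 to 0.087 for Riok2, from -0.011 to 0.18 for Nhp2, from -0.011 to 0.35 for Nop16, from -0.12 to 0.17 for Bysl, from -0.14 to 0.084 for Nop56, from -0.22 to 0.061 for Rrs1, from -0.15 to 0.074 for Ddx56, from -0.10 to 0.11 for Wdr46, from -0.16 to 0.048 for Exosc3, from -0.16 to 0.074 for Nip7, from -0.13 to 0.17 for Pno1, from -0.21 to 0.0032 for Pop7, from -0.019 to 0.30 for Nolc1 and from -0.16 to 0.20 for Polr1b. The cause was not tested.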
